A study of Mus musculus with 18 samples.

Results

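The genes described here are 10 secreted proteins of the Wnt pathway that dermal fibroblasts make, out of 32285 genes in the deposited matrices. They are the ligands Wnt2, Wnt5a and Wnt10b, the secreted Wnt binders Wif1, Sfrp1, Sfrp2 and Sfrp4, the Dickkopf proteins Dkk2 and Dkk3, and the R-spondin Rspo3. The members were taken by name and not by a cut on a measured value, but with earlier results of these data known. All 10 had UMIs (unique molecular identifiers, each counting 1 captured transcript) in fibroblasts. Of these, 9 passed the low-count filter of the rhythm test, and Wif1 did not. In these data Wnt2, Wnt10b and Rspo3 had their highest levels in the fibroblast cluster marked by Krtdap and their lowest in the Cthrc1, Cxcl14 and Cilp clusters. For Wnt2 and Wnt10b the next cluster was close, with a ratio of means of 1.06 and overlap over libraries. Sfrp1 and Dkk3 ran the other way, and Wif1 came almost wholly from a group of 20 cells. No member passed the test for a 24 h rhythm in fibroblasts summed together, where 13.0% of all genes did. Inside the Sult1e1 cluster Wnt10b and Rspo3 passed it (2 of 8 members tested, against 5.88% of all genes). Wnt10b also passed in the Pla1a-led cluster (1 of 8, against 5.97%) and Rspo3 in the Il18r1-led cluster (1 of 8, against 2.81%). No member passed in the other clusters, where 0.67 to 4.96% of genes did.

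Wnt proteins are lipid-modified secreted signals that bind Frizzled receptors. With the co-receptors Lrp5 and Lrp6 they stabilise beta-catenin (Ctnnb1), which turns on target genes with TCF/LEF factors, and some ligands act without beta-catenin. Sfrp proteins and Wif1 bind Wnt ligands outside the cell, Dickkopf proteins act at the Lrp co-receptors, and R-spondins raise Wnt signalling by keeping the ligases Rnf43 and Znrf3 from removing Frizzled receptors. In skin, Wnt signals from the dermis and epidermis take part in hair follicle growth, and several of these modulators are known from the dermal papilla, the fibroblast cluster at the base of the follicle.

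Dorsal dermis was taken from wild-type male C57BL/6J mice kept under a light-dark cycle, with hair follicles in telogen, the resting stage. Samples were collected every 4 h over 3 days, which gave 6 zeitgeber times (ZT, hours after lights on): ZT2, ZT6, ZT10, ZT14, ZT18 and ZT22, with 3 replicates each and 1 mouse per library, 18 libraries in all. The groups differed only in time, and there was no other genotype or treatment. Skin was digested with collagenase after fat was scraped away, live cells were sorted by a viability dye, and the cells were sequenced with a droplet 3' assay. Cell types outside the dermal digest and cells lost in sorting were therefore not measured.

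The matrices held 23990 barcodes, 318 to 2322 per library, and 4850221 to 40827442 UMIs per library. The filter on genes per cell and mitochondrial share kept 16877 cells, of which 12674 (75.1%) formed fibroblast-like clusters, 3375 immune-like, 735 muscle-like, 27 endothelial-like and 17 keratinocyte-like clusters, and 49 stayed unnamed. The fibroblast label was borne out by its markers: Col1a1 was at 225.7 per 10000 UMIs in fibroblasts and 4.99 in immune-like cells. The 7 immune markers summed to 0.0375 to 0.168 per 10000 in the fibroblast sums of the 18 libraries, with Cd3e at 0. Haemoglobin genes summed to 0.663 to 23.4 and muscle genes to 0.038 to 1.04 per 10000 there, and their part in the results was not tested. Of 23824 distinct barcodes, 164 occurred in 2 or more libraries (36 of 16840 among the cells kept). Fibroblasts numbered 110 to 1589 per library (median 550.5). The library labelled ZT14 replicate 1 stood apart: 43.3% of its fibroblasts fell in the interferon cluster, against 3.35 to 13.4% in the other libraries, and it held the lowest levels of Wnt5a, Sfrp1 and Sfrp2. Results that turn on it are given with and without it.

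Fibroblasts were clustered without the members, the rest of the Wnt list and the clock genes. Of the clusters present with at least 10 cells in at least 15 libraries, 7 were named from marker lists: Krtdap (2098 cells), Sult1e1 (1868), Cxcl1 (1741), interferon (1033), Cthrc1 (808), Cxcl14 (574) and Cilp (488). Another 3 were left without a name and are called by their leading genes: Pla1a-led (1762 cells), Il18r1-led (1467) and a low-UMI cluster (701) led by mitochondrial and ribosomal-repeat genes. Names rest on the leading genes, since marker lists overlapped: relative to the highest cluster of each marker, the Cxcl1 list averaged 81.4% in the Cthrc1 cluster against 68.7% in the Cxcl1 cluster, and the Sult1e1 list 74.0% in the Cxcl14 and 67.9% in the Cilp cluster against 56.1% in the Sult1e1 cluster. A further list, for Pi16 fibroblasts, named none of these clusters. All 7 of its markers were detected in the Krtdap cluster, where it averaged 95.8% against 62.2% for the Krtdap list. It averaged 20.8% in the Cthrc1, 23.5% in the Cxcl14 and 26.5% in the Cilp cluster, and 69.1 to 81.7% in the others. In the Krtdap cluster Krtdap was at 5.98 and Dmkn at 3.81 per 10000, while the basal keratinocyte genes Krt5 and Krt14 were at or near 0. Levels below are UMIs per 10000 UMIs of the summed cells of a library, given as mean ± SD over libraries. A 3' count is not scaled by transcript length, so levels are compared between cells and times, not between genes. Because clusters come from the same cells, levels by cluster are descriptions with no test.

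Fibroblasts were the main source of the members among the cells compared. In each of the 18 libraries, 9 members were higher in fibroblasts than in immune-like cells, and the ratio of means ran from 21.6 (Wnt10b) to 59.8 (Dkk3). To compare cells of unlike depth (median 21896.5 UMIs per fibroblast and 10984 per immune-like cell), each cell was thinned to 5000 UMIs, which left out 393 fibroblasts and 656 immune-like cells. Sfrp2, a secreted Frizzled-related protein, was then found in 88.0% of fibroblasts and 4.93% of immune-like cells, and Sfrp4 in 67.7% and 2.80%. Wnt2 was found in 42.2% against 0.993%, Wnt5a in 32.3% against 0.478% and Wnt10b in 24.8% against 1.03%. The immune-like share is the level that free RNA in droplets could give, and the fibroblast share was above it for 9 members. Sfrp1 was found in 28.5%, Dkk2 in 23.9%, Rspo3 in 23.6% and Dkk3 in 2.32% of fibroblasts, against 0.809%, 0.515%, 0.257% and 0.0368% of immune-like cells. Without thinning the fibroblast shares were 91.0% for Sfrp2, 87.2% for Sfrp4, 74.8% for Wnt2, 65.0% for Wnt5a, 62.2% for Sfrp1, 57.5% for Wnt10b, 50.5% for Rspo3, 39.4% for Dkk2, 7.67% for Dkk3 and 0.126% for Wif1. Wif1 stood at 0.0570% of fibroblasts after thinning. Of 2719 thinned immune-like cells, 0 had a UMI of it (95% Wilson interval up to 0.141%), so these thinned shares cannot be told apart. Thinning took the fibroblasts with a Wif1 UMI from 16 to 7, and it leaves out cells under 5000 UMIs. Of the 16, 14 lay in a group with a median of 3212.5 UMIs, described below. Without thinning 0 of 3375 immune-like cells had a Wif1 UMI. That allows a share of up to 0.0889% of cells with a UMI, not of cells that express the gene.

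Wnt2 (ENSMUSG00000010797, chr6:17988940-18030585 on the minus strand; positions are for GRCm38, and all 10 genes are annotated as protein-coding), a ligand known for beta-catenin signalling, averaged 1.33 ± 0.186 per 10000 in fibroblasts (18 libraries), with a lowest value of 0.933, a median of 1.39 and a highest of 1.53. It was highest in the Krtdap cluster (1.92 ± 0.297, n = 17) and lowest in the Cthrc1 cluster (0.0956 ± 0.0665, n = 17), a ratio of 20.1, with Krtdap above Cthrc1 in 16 of 16 libraries that held both. The Cxcl14 cluster (0.324 ± 0.133) and the Cilp cluster (0.401 ± 0.168) were also low. Between these ends came the Pla1a-led (1.81), Cxcl1 (1.57), Il18r1-led (1.48), interferon (1.46), Sult1e1 (1.15) and low-UMI (0.861) clusters, each of which overlapped its neighbours in this order over libraries.

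Wnt10b (ENSMUSG00000022996, chr15:98770712-98778150 on the minus strand), a ligand known in hair growth and fat cell development, was spread over the clusters much as Wnt2 was. Its fibroblast level was 0.606 ± 0.179 per 10000 (lowest 0.354, median 0.576, highest 1.02). The Krtdap cluster had 0.906 ± 0.207 and the Pla1a-led cluster 0.855 ± 0.220, whereas the Cxcl14 (0.0604 ± 0.0483), Cilp (0.0439 ± 0.0498) and Cthrc1 (0.0224 ± 0.0333) clusters were close to 0. The order of the cluster means had 1 gap over libraries: the Sult1e1 cluster (0.554 ± 0.164) lay above the Cxcl14 cluster in 16 of 16 libraries, 9.17 times higher, and their ranges did not meet. In the other clusters Wnt10b was at 0.731 (low-UMI), 0.725 (Cxcl1), 0.669 (interferon) and 0.595 (Il18r1-led), and neighbours overlapped. Over 165 cluster-by-library sums the log2 levels of Wnt2 and Wnt10b had a Pearson correlation of 0.86, which is a description, since sums of 1 library share that library and its depth.

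Wnt5a (ENSMUSG00000021994, chr14:28504750-28527448 on the plus strand), the ligand best known for signalling without beta-catenin, had another order. Its fibroblast level was 0.902 ± 0.196 per 10000 (lowest 0.408, in ZT14 replicate 1, median 0.925, highest 1.30). It was highest in the Sult1e1 cluster (1.32 ± 0.311, n = 18), followed by the Il18r1-led (1.07), Pla1a-led (1.03), Krtdap (1.02), interferon (1.01), low-UMI (0.988), Cxcl1 (0.806), Cxcl14 (0.497) and Cilp (0.222) clusters. The Cthrc1 cluster (0.189 ± 0.0887) was lowest, below Sult1e1 in 17 of 17 libraries by 6.99 times. All neighbours in the order overlapped.

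Rspo3 (ENSMUSG00000019880, chr10:29452416-29535867 on the minus strand), the R-spondin among the members, was nearest to Wnt10b in its spread over clusters (correlation 0.80 over the 165 sums). Its fibroblast level was 0.664 ± 0.158 per 10000 (lowest 0.417, median 0.672, highest 0.978). The Krtdap cluster was highest at 1.08 ± 0.227, above the next, the Il18r1-led cluster (0.793 ± 0.177), in 13 of 14 libraries by 1.37 times. At the low end stood the Cthrc1 (0.154 ± 0.0779), Cilp (0.0653 ± 0.0522) and Cxcl14 (0.0333 ± 0.0428) clusters, and Krtdap was above Cxcl14 in 16 of 16 libraries, 32.5 times. The Sult1e1 cluster, highest for Wnt5a, was 7th of 10 for Rspo3 at 0.528 ± 0.208. Among single fibroblasts thinned to equal depth, Wnt10b and Rspo3 were found together 1.26 times as often as the product of their shares, and Wnt2 and Rspo3 1.19 times.

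**Figure D1:**
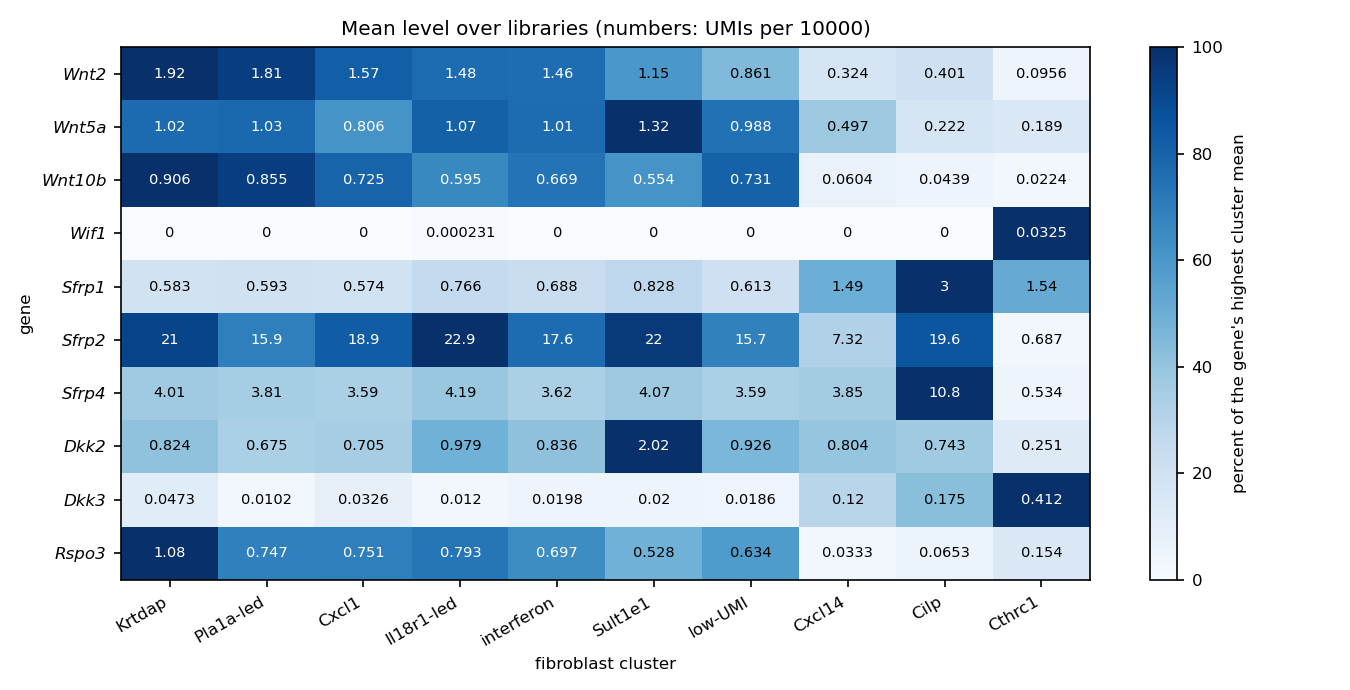
Levels of the 10 members (vertical axis) in 10 fibroblast clusters (horizontal axis): the number in each cell is the mean over libraries in UMIs per 10000, and the colour is that mean as a percentage of the gene's highest cluster. Wnt2, Wnt10b and Rspo3 are low in the Cthrc1, Cxcl14 and Cilp columns (Wnt10b 0.0224, 0.0604 and 0.0439), where Sfrp1 is highest (1.54, 1.49 and 3.00).

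The secreted binders were divided between the clusters. Sfrp1 (ENSMUSG00000031548, chr8:23411502-23449632 on the plus strand), which binds Wnt ligands through a Frizzled-like domain, averaged 0.843 ± 0.111 per 10000 in fibroblasts (lowest 0.560, in ZT14 replicate 1, median 0.823, highest 1.02). It peaked in the Cilp cluster at 3.00 ± 0.922, with the Cthrc1 cluster at 1.54 ± 0.463 and the Cxcl14 cluster at 1.49 ± 0.303, while the remaining 7 clusters ran from 0.574 (Cxcl1) to 0.828 (Sult1e1). Cilp was above Cthrc1 in 15 of 15 libraries (1.94 times) and above Cxcl1 in 15 of 15 (5.23 times). Sfrp1 and Wnt10b ran in opposite order over the clusters, with a correlation of -0.76 over the 165 sums.

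Sfrp2 (ENSMUSG00000027996, chr3:83766321-83774316 on the plus strand) is a relative of Sfrp1 and a common fibroblast marker. Its fibroblast level was 17.2 ± 3.30 per 10000 (lowest 8.04, in ZT14 replicate 1, median 17.4, highest 21.5). The Il18r1-led (22.9 ± 2.97), Sult1e1 (21.97 ± 3.34) and Krtdap (21.0 ± 3.87) clusters were highest and overlapped. The Cxcl14 cluster had 7.32 ± 2.84 and the Cthrc1 cluster 0.687 ± 0.399, below Cxcl14 in 16 of 16 libraries by 10.7 times and below the Il18r1-led cluster in 15 of 15 by 33.3 times. The Cilp mean of 19.6 hid a spread from 1.29 to 51.0 over its 15 libraries (SD 12.4), the widest among the clusters. With coarser clusters (resolution 0.4) the highest named cluster for Sfrp2 was Cxcl1, against Sult1e1 among the named main clusters.

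Sfrp4 (ENSMUSG00000021319, chr13:19623104-19632994 on the plus strand), another protein of this family, averaged 3.89 ± 0.843 per 10000 (lowest 2.88, median 3.64, highest 5.99). The Cilp cluster reached 10.8 ± 4.05 and was above the next, the Il18r1-led cluster (4.19 ± 0.838), in 12 of 13 libraries by 2.58 times. The clusters from Il18r1-led down to Cxcl1 and low-UMI were within 3.59 and 4.19 and overlapped. The Cthrc1 cluster (0.534 ± 0.410) was apart from the rest: the Cxcl1 cluster was above it in 17 of 17 libraries, 6.72 times, with no overlap. Thus Sfrp2 and Sfrp4 were both lowest in the Cthrc1 cluster, where Sfrp1 was second highest.

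The Dickkopf proteins had opposite ends as well. Dkk2 (ENSMUSG00000028031, chr3:132085292-132180304 on the plus strand), which binds the Lrp5 and Lrp6 co-receptors, averaged 0.938 ± 0.249 per 10000 (lowest 0.505, median 0.990, highest 1.41). It was highest in the Sult1e1 cluster (2.02 ± 0.733), above the Il18r1-led cluster (0.979 ± 0.273) in 15 of 15 libraries by 2.06 times, and lowest in the Cthrc1 cluster (0.251 ± 0.298), below Sult1e1 in 16 of 17 libraries by 8.05 times. A group of 20 cells inside the Cthrc1 cluster, described with Wif1 below, held 208 of its 445 Dkk2 UMIs. Without them the Cthrc1 cluster was at 0.149 ± 0.267 and the ratio was 13.6, again in 16 of 17 libraries. The other clusters lay between 0.675 (Pla1a-led) and 0.926 (low-UMI). Wnt5a shared this high cluster, and the pair was found in the same thinned cells 1.29 times as often as the product of their shares.

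Dkk3 (ENSMUSG00000030772, chr7:112116017-112159057 on the minus strand) is a distant member of the family that is not known for binding Lrp6 as Dkk2 does. Its level was low, at 0.0770 ± 0.0398 per 10000 and 1796 UMIs over the 18 libraries, and it was concentrated in the clusters that had little Wnt2 and Wnt10b. The Cthrc1 cluster had 0.412 ± 0.163, above the Cilp cluster (0.175 ± 0.0981) in 14 of 15 libraries by 2.36 times, followed by the Cxcl14 cluster (0.120 ± 0.117). The other 7 clusters were between 0.0102 (Pla1a-led) and 0.0473 (Krtdap). Dkk3 was found with Wnt10b in the same thinned cells 0.397 times as often as the product of their shares, and with Wnt2 0.532 times.

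Wif1 (ENSMUSG00000020218, chr10:121033960-121100650 on the plus strand), Wnt inhibitory factor, was the rarest member, with 52 UMIs in fibroblasts. By library the UMIs were 11, 0 and 0 at ZT2 (replicates 1 to 3), 0, 7 and 0 at ZT6, 4, 2 and 0 at ZT10, 0, 3 and 8 at ZT14, 0, 7 and 5 at ZT18, and 0, 4 and 1 at ZT22. Thus 10 of 18 libraries had any, each ZT had at least 1 library at 0, and no order over time can be read from them. In the 8 libraries at 0, a count of 0 allows up to 3 UMIs, or 0.000877 to 0.0102 per 10000 depending on depth. The Cthrc1 cluster held 51 of the 52 UMIs and the Il18r1-led cluster the other.

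At the coarser resolution of 0.4, 14 of the 16 fibroblasts with a Wif1 UMI fell in a cluster of 20 cells from 11 libraries, which the main clustering had placed inside Cthrc1. These cells were shallow, with a median of 3212.5 UMIs (range 1416 to 18739). Wif1 stood at 4.99 per 10000 in them and at 0.000144 in the remaining fibroblasts. Dkk2 was found in 18 of the 20 cells (208 UMIs, 21.6 per 10000 against 0.922 in the rest), Rspo3 in 11 and Wnt5a in 5, while Wnt2, Wnt10b and Sfrp4 had no UMI there. Sfrp2 was at 1.25 per 10000 against 17.3. The genes that led the cluster were Prlr, Slc26a7, Trps1 and Lef1, the last a nuclear partner of beta-catenin, found in 15 cells, and Bmp4, a growth factor, was found in 17. Of the dermal papilla markers, Prlr was found in 17 cells, Hhip in 10, Corin in 6, Alx4 in 5 and Edn3 in 0, and of the papillary fibroblast markers Col23a1 was found in 16, Crabp1 in 10, Ntn1 in 5, Col13a1 in 4 and Entpd1 in 1. Ntn1 (1.67 against 1.81 per 10000) and Entpd1 (0.104 against 0.107) were no higher there than in other fibroblasts. Collagen was lower there than in other fibroblasts (Col1a1 24.2 against 208.7 per 10000, and no UMI of Lum). The marker rule called the cluster papillary fibroblast, from 2 leading markers, but the dermal papilla marker Prlr led it, so no name is used here, a choice made after its genes were seen. Since the cells were grouped by the same counts these values are a description with no test.

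Over time, the 9 members with enough counts were tested in the fibroblast sum of each library with a 24 h cosine curve (edgeR's quasi-likelihood test, Benjamini-Hochberg adjustment over all genes). None of the 9 passed an adjusted p of 0.05, whereas 13.0% of all 12885 genes tested passed. At an unadjusted p under 0.05 were 1 of the 9 (Wnt10b) and 3740 of the 12885 genes. DESeq2 called 0 of 10, Wif1 included, against 16.8% of genes (2 at an unadjusted p under 0.05, beside 4187 genes in all). JTK_Cycle called 0 of 9, against 13.8% of genes. The largest fitted amplitudes were 0.52 ± 0.21 on the log2 scale for Dkk3 (adjusted p = 0.185), 0.30 ± 0.13 for Wnt10b (adjusted p = 0.143) and 0.22 ± 0.09 for Rspo3 (adjusted p = 0.269). Errors of amplitudes are jackknife standard errors over libraries. For Wnt2, Wnt5a, Sfrp1, Sfrp2, Sfrp4 and Dkk2 the amplitudes ran from 0.07 to 0.18 and the adjusted p from 0.420 to 0.765. The median amplitude was 0.14 over the members, 0.15 over the other Wnt pathway genes and 0.13 over all genes. In immune-like cells 5 members could be tested and 0 were called by edgeR, where 0.0924% of genes were. At an unadjusted p under 0.05 were 0 of the 5 and 867 of 10827 genes.

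**Figure D2:**
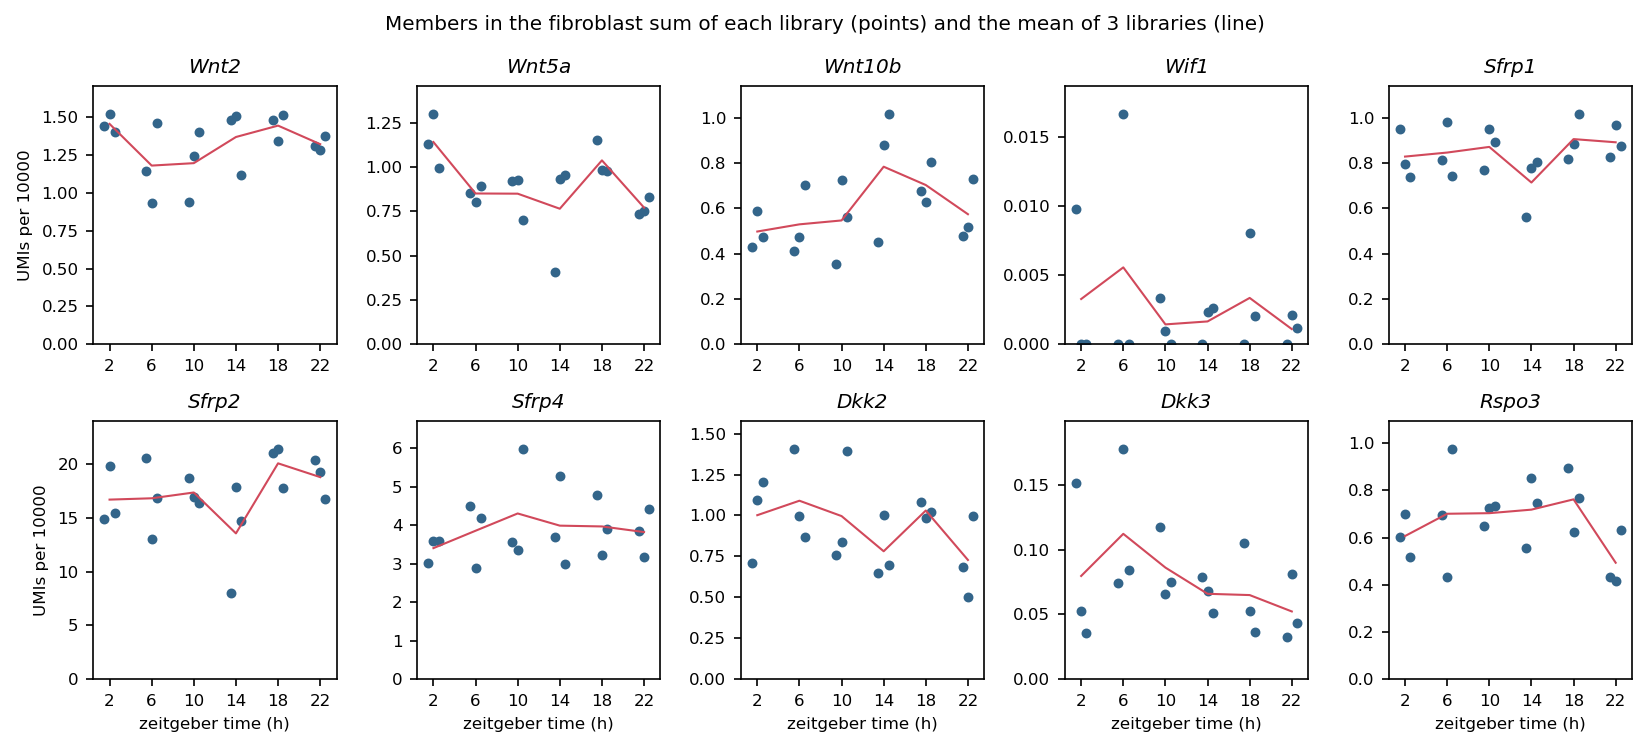
Levels of the 10 members in fibroblasts (UMIs per 10000, vertical axes) against zeitgeber time in hours, with 1 point per library and a line through the means of the 3 libraries of each time (points of a time are set side by side). Libraries of a time are often as far apart as the means of different times, as for Dkk3 at ZT2 (0.152, 0.0526 and 0.0354).

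Wnt10b in the fibroblast sum had its highest mean at ZT14 (0.785 ± 0.296, n = 3) and its lowest at ZT2 (0.498 ± 0.0829, n = 3), with a fitted peak at 15.5 h. Left out of the fit, ZT14 replicate 1 took the adjusted p of Wnt10b from 0.143 to 0.0406 (edgeR). Wnt10b was then the 1 of 10 members called, against 13.8% of genes. With the day of collection (the replicate number) as a block, its adjusted p was 0.0613. For Wnt2 the means ran from 1.18 ± 0.267 at ZT6 to 1.46 ± 0.0620 at ZT2, and for Sfrp2 from 13.6 ± 5.04 at ZT14 to 20.1 ± 2.02 at ZT18, and neither passed the test (adjusted p = 0.420 and 0.686, edgeR). Sfrp2 was lowest at ZT14 in 9 of 10 clusters, and in 7 of 10 without ZT14 replicate 1. The clusters share their libraries, and no Sfrp2 curve inside a cluster was called. In the fibroblast sum the ZT14 libraries gave 8.04 (replicate 1), 17.9 and 14.7 per 10000.

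Dkk3 was the only member with counts enough to test whose ZT means differed by over 2 times. The libraries gave 0.152, 0.0526 and 0.0354 per 10000 at ZT2, 0.0747, 0.179 and 0.0841 at ZT6, 0.118, 0.0660 and 0.0751 at ZT10, 0.0787, 0.0680 and 0.0514 at ZT14, 0.106, 0.0527 and 0.0368 at ZT18, and 0.0324, 0.0811 and 0.0436 at ZT22. The mean at ZT6 (0.112 ± 0.0574) was 2.15 times that at ZT22 (0.0524 ± 0.0255), but the libraries of these times overlapped. The 3 highest libraries for Dkk3 were ZT6 replicate 2, ZT2 replicate 1 and ZT10 replicate 1, in which the Cthrc1 cluster, where Dkk3 was highest, held 21.3, 13.4 and 16.4% of fibroblasts against a lowest share of 2.40%. The part of this share in the time course of Dkk3 was not tested.

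The mix of clusters also differed over time. The mean share of the Krtdap cluster was 25.4% at ZT14 and 29.0% at ZT18 against 9.01 to 12.5% at the other times, and the Il18r1-led cluster made up 0.841% of fibroblasts at ZT14 and 20.2% at ZT2. In a sum over fibroblasts, a change in the mix and a change within cells cannot be told apart. The same fit was therefore made inside each of the 10 clusters. Only the Wnt list and the clock genes were kept out of the clustering, so cells may pass between clusters with time. A curve inside a cluster can therefore still hold a change in mix, which was not tested. Over these fits, 4 calls were made, for Wnt10b and Rspo3 alone. Each fit tested 7 to 9 members, and 0.67 to 5.97% of all genes were called. Whether the 4 calls exceed that share was not tested.

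In the Sult1e1 cluster (18 libraries) 2 of 8 members tested were called, against 5.88% of genes. Wnt10b there was at 0.43, 0.356 and 0.308 per 10000 at ZT2, 0.380, 0.577 and 0.671 at ZT6, 0.459, 0.648 and 0.473 at ZT10, 0.606, 0.847 and 0.929 at ZT14, 0.526, 0.565 and 0.656 at ZT18, and 0.443, 0.451 and 0.648 at ZT22. All 3 libraries at ZT14 were above all 3 at ZT2. The fit gave an amplitude of 0.49 ± 0.13 (log2), a fold of 1.96 from trough to peak, a peak at 14.3 ± 0.844 h and an adjusted p of 0.00256 (edgeR). It was called in 18 of 18 fits that left out 1 library, with adjusted p from 0.000262 to 0.0274.

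Wnt10b was also called in the Pla1a-led cluster (1 of 8 members tested, against 5.97% of genes). The libraries there had 0.639, 0.709 and 0.569 per 10000 at ZT2, 0.593, 0.897 and 0.809 at ZT6, 0.818, 1.01 and 0.914 at ZT10, 1.17 and 1.29 at ZT14 (replicates 2 and 3), 0.722 and 1.03 at ZT18 (replicates 2 and 3), and 0.625, 0.752 and 1.13 at ZT22. Both ZT14 libraries were above every library of the other times. The amplitude was 0.42 ± 0.07, the fold 1.80, the peak at 14.6 h and the adjusted p 0.00192 (edgeR, 16 libraries), and the call was made in 16 of 16 fits that left out 1 library (adjusted p up to 0.0204). The ZT14 replicate 1 library had too few cells of this cluster and was not in the fit. Over the 7 clusters in which Wnt10b had counts enough to test, its highest ZT mean was at ZT14 in 7 of 7, with fitted peaks from 13.9 to 15.9 h. That count was the same without ZT14 replicate 1. The clusters share their libraries, so they are not 7 independent time courses.

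Rspo3 in the Sult1e1 cluster was at 0.136, 0.396 and 0.318 per 10000 at ZT2, 0.581, 0.412 and 0.706 at ZT6, 0.623, 0.631 and 0.608 at ZT10, 0.370, 0.877 and 0.755 at ZT14, 0.907, 0.546 and 0.571 at ZT18, and 0.297, 0.307 and 0.470 at ZT22. The libraries at ZT2 and ZT22 were low, and those at ZT10 were all above them. The amplitude was 0.58 ± 0.10, the fold 2.23, the peak at 12.6 h and the adjusted p 0.00143 (edgeR), called in 18 of 18 fits that left out 1 library (0.000392 to 0.00899).

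In the Il18r1-led cluster Rspo3 was the 1 of 8 members called, against 2.81% of genes. Its libraries had 0.703, 0.718 and 0.599 at ZT2, 0.898, 0.739 and 1.11 at ZT6, 1.01, 0.908 and 1.08 at ZT10, 0.727 at ZT14 (replicate 3 alone), 0.618 and 0.730 at ZT18 (replicates 2 and 3), and 0.520, 0.685 and 0.839 at ZT22. The ZT10 libraries were all above those of ZT2, ZT14, ZT18 and ZT22. The amplitude was 0.35 ± 0.08, the fold 1.63, the peak at 9.65 h and the adjusted p 0.00778 (edgeR, 15 libraries), called in 15 of 15 fits that left out 1 library (adjusted p up to 0.0427). Over 9 clusters tested, the fitted peaks of Rspo3 lay between 7.06 and 12.6 h, and 6 had an unadjusted p under 0.05. Such a p was common in these fits, from 451 of 4507 genes (low-UMI) to 2044 of 10184 (Pla1a-led). In the Il18r1-led fit the 1 library at ZT14 held 15 cells of that cluster. The study reported Il18r1 itself as rhythmic in fibroblasts, and its part in the curves of this cluster was not tested.

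No member was called in the other 7 clusters by edgeR. In the Krtdap cluster 0 of 9 members tested were called (1 at an unadjusted p under 0.05), against 4.96% of genes. In the Cxcl1 cluster 0 of 9 were (1 unadjusted), against 3.12%. In the interferon cluster 0 of 8 were (2 unadjusted), against 1.72%, in the Cthrc1 cluster 0 of 8 (3 unadjusted), against 1.46%, and in the low-UMI cluster 0 of 8 (2 unadjusted), against 1.20%. In the Cxcl14 cluster 0 of 7 were (2 unadjusted), against 0.67%, and in the Cilp cluster 0 of 8 (0 unadjusted), against 1.56%. These percentages are of genes at the adjusted p. At an unadjusted p under 0.05 were 1877 of 10521 genes in the Krtdap, 1678 of 10337 in the Cxcl1 and 1287 of 8838 in the interferon cluster. Likewise it was 1233 of 8712 in the Cthrc1, 451 of 4507 in the low-UMI, 831 of 8065 in the Cxcl14 and 1383 of 8574 in the Cilp cluster. DESeq2 and JTK_Cycle were not run within clusters. With libraries of at least 20 cells, Wnt10b in the low-UMI cluster (against 0.861% of genes) and Rspo3 in the Cxcl1 cluster (against 3.47%) were called too. That low-UMI fit kept replicate 3 alone at ZT18 and replicate 2 alone at ZT22.

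**Figure D3:**
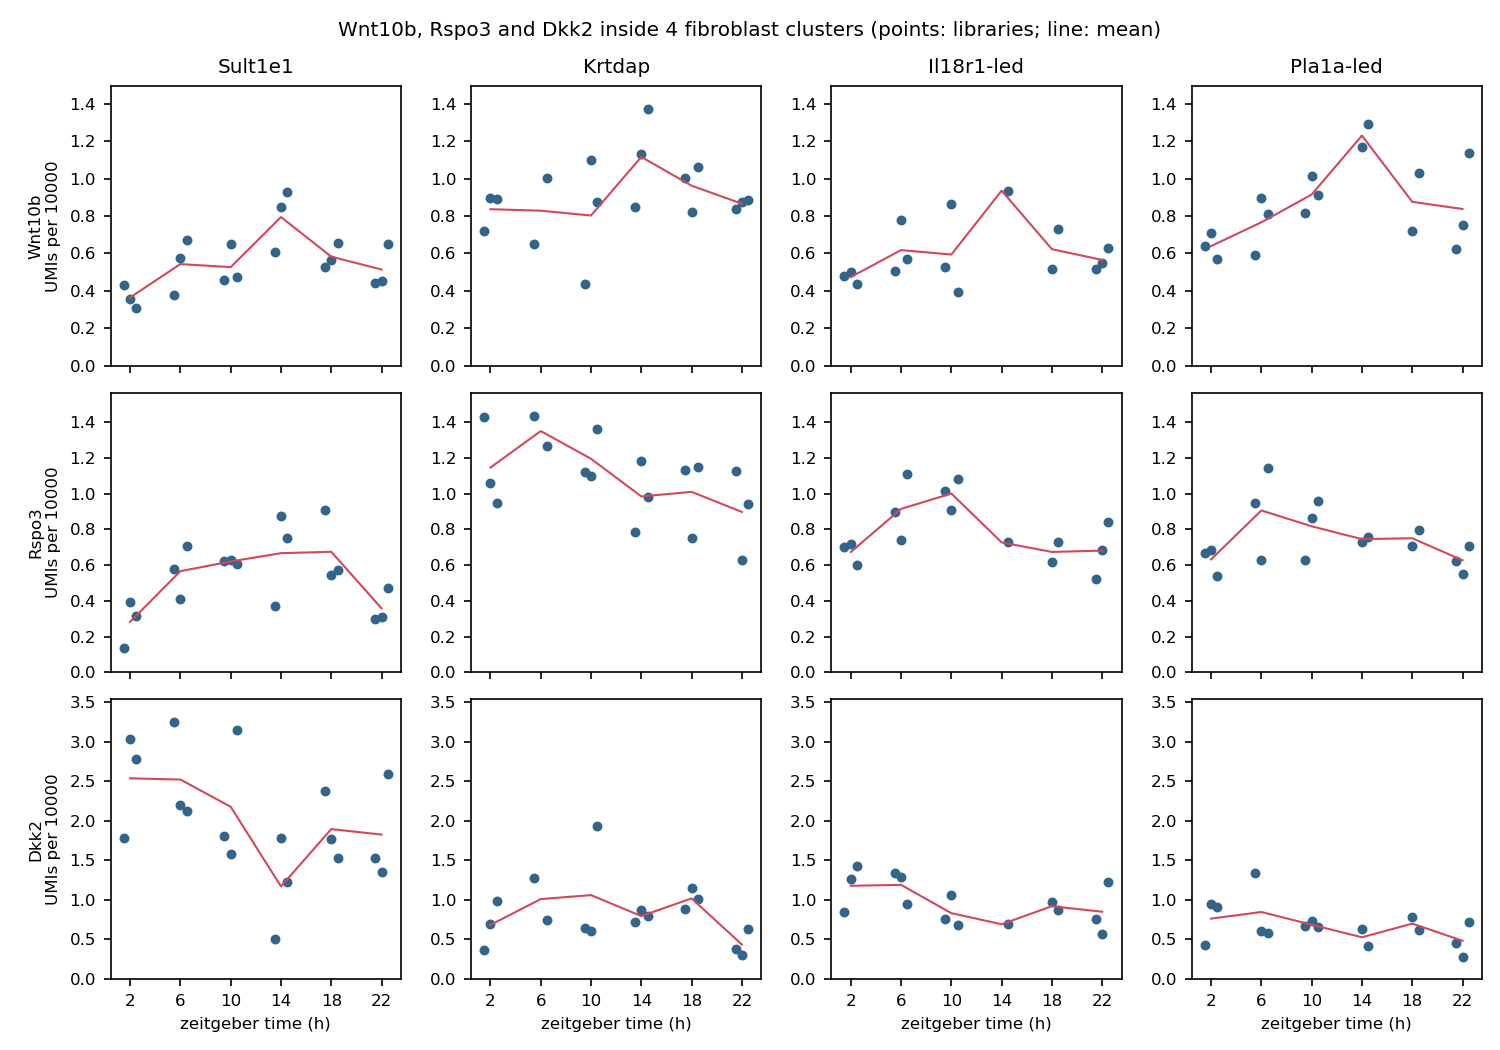
Wnt10b, Rspo3 and Dkk2 levels (UMIs per 10000 of the cluster's sum, vertical axes) against zeitgeber time in hours in the Sult1e1, Krtdap, Il18r1-led and Pla1a-led clusters, with 1 point per library and a line through the means of each time (points of a time are set side by side). Wnt10b has its highest mean at ZT14 in the Sult1e1 cluster (0.794), and Dkk2 its lowest there at the same time (1.17).

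The Krtdap and Sult1e1 clusters, with the most cells, were compared directly by a test of whether the 24 h curve differed between them, with library as a block (17 libraries with at least 10 cells of both). Of 9 members tested, 2 passed, Dkk2 and Rspo3, against 0.166% of 10857 genes. At an unadjusted p under 0.05 were 4 of the 9 members and 652 of the 10857 genes. For Dkk2 the adjusted p was 0.00332 (edgeR), and it was called in 17 of 17 fits that left out 1 library (0.00122 to 0.0253). For Rspo3 it was 0.0149, called in 14 of 17 and lost without ZT14 replicate 2 (0.0960), ZT14 replicate 3 (0.144) or ZT2 replicate 3 (0.0680). Wnt10b did not pass this test (adjusted p = 0.408).

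Dkk2 in the Sult1e1 cluster had ZT means of 2.54 ± 0.661 at ZT2, 2.52 ± 0.625 at ZT6, 2.18 ± 0.846 at ZT10, 1.17 ± 0.638 at ZT14, 1.89 ± 0.436 at ZT18 and 1.82 ± 0.670 at ZT22 (n = 3 each). The single libraries were 1.79, 3.04 and 2.78 at ZT2, 3.24, 2.19 and 2.13 at ZT6, 1.80, 1.58 and 3.15 at ZT10, 0.505, 1.78 and 1.23 at ZT14, 2.38, 1.77 and 1.53 at ZT18, and 1.53, 1.36 and 2.59 at ZT22. The lowest of the 18 was ZT14 replicate 1, without which the difference between the clusters was still called. The fitted peak was at 4.19 h with an amplitude of 0.43 ± 0.13, which did not pass on its own (adjusted p = 0.0702).

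In the Krtdap cluster Dkk2 was at 0.370, 0.693 and 0.990 per 10000 at ZT2, 1.27 and 0.748 at ZT6 (replicates 1 and 3), 0.640, 0.609 and 1.93 at ZT10, 0.721, 0.871 and 0.795 at ZT14, 0.889, 1.15 and 1.02 at ZT18, and 0.375, 0.307 and 0.627 at ZT22. Here the ZT14 libraries were not low, and the ZT22 libraries were, so the order of times was not that of the Sult1e1 cluster. The fitted peak was at 11.5 h (amplitude 0.31), and this curve did not pass on its own either (adjusted p = 0.549, edgeR). For Rspo3 the fitted curve in the Krtdap cluster did not pass on its own (adjusted p = 0.250, edgeR). Rspo3 had a fitted peak there at 7.06 h with an amplitude of 0.24, against 12.6 h and 0.58 in the Sult1e1 cluster. Its ZT means in the Krtdap cluster were 1.15 ± 0.250 at ZT2, 1.35 ± 0.121 at ZT6 (n = 2), 1.20 ± 0.145 at ZT10, 0.985 ± 0.197 at ZT14, 1.01 ± 0.225 at ZT18 and 0.898 ± 0.251 at ZT22. Thus at ZT2 Rspo3 was at 1.15 in the Krtdap cluster and 0.283 in the Sult1e1 cluster, and at ZT18 at 1.01 and 0.675. In the 10 clusters the fitted peaks of Dkk2 lay between 3.43 and 11.5 h, 6 with an unadjusted p under 0.05 and 0 called by edgeR. In the Sult1e1 cluster, for example, 1816 of 9601 genes had such an unadjusted p.

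The 250 bases before the transcription start are shown for Wnt10b, a member called within clusters, and Dkk2, the member with the smallest p in the comparison of clusters, as RefSeq gives them for GRCm38.p6. Promoter entries were matched by symbol for 5 of 10 members (Wnt2, Wnt10b, Wif1, Sfrp2 and Dkk2). Capitals mark CANNTG, the general core of the E-box. The clock proteins Clock and Bmal1 are known for the narrower form CACGTG, which is in neither sequence shown. CANNTG was searched on both strands and reads alike on each, and CACGTG is among the sequences that it covers. The sequences run 5' to 3' on the gene's strand, chr15:98778151-98778400 on the minus strand for Wnt10b and chr3:132085042-132085291 on the plus strand for Dkk2.

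Wnt10b: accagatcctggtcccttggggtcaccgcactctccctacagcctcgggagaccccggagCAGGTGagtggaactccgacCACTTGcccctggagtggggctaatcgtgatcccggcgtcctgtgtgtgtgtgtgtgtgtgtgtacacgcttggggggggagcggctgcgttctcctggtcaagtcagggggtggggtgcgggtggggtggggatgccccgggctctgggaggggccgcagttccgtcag

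Dkk2: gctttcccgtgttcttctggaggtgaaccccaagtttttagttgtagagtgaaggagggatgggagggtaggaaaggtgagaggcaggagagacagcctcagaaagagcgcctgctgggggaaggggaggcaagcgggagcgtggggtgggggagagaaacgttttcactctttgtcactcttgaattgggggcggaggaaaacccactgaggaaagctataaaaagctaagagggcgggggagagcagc

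Wnt10b had 2 matches, CAGGTG and CACTTG, and Dkk2 none. Of the other 3 promoters, Wif1 had 2 and Wnt2 and Sfrp2 had none. CANNTG occurred in 66.2% of 32851 promoter windows of this length, and CACGTG, found among the 5 in Wif1 alone, in 6.02%. A match is a description of the letters and no site, and no match says only that these letters are not in this window.

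The rest of the pathway gives the members' surroundings. Of 61 other Wnt genes that could be tested in the fibroblast sum (of 89 listed), 17 were called by edgeR, beside the 13.0% of all genes. JTK_Cycle, without adjustment over genes, called 13 of the 61, beside 13.8% of all genes. Its templates had periods of 20, 24 and 28 h, and a call at any of them was counted. The period was 20 h for the calls of Lgr4, Znrf3 and Nkd2 and 28 h for that of Tle1, so these are not calls of a 24 h curve. Of the 17 genes, all named below, it did not call Wnt9a, Wnt1, Fzd4, Lrp5 and Apcdd1. It did call Nkd2, which edgeR did not. Among 5 other ligands, 2 were called: Wnt9a (amplitude 0.42 ± 0.12, peak 12.7 h, adjusted p = 0.0102) and Wnt1 (0.75 ± 0.17, peak 15.5 h, adjusted p = 0.0125), the latter lost without ZT14 replicate 3 (adjusted p = 0.0538). Wnt1 is the neighbour of Wnt10b, at chr15:98789857-98793837 on the plus strand, so the genes start on opposite strands and point away from each other. Wnt1 had 462 UMIs in fibroblasts, was highest in the Krtdap cluster (0.0302 ± 0.0220 per 10000) and had no UMI in the Cthrc1 and Cilp clusters. Of 4 other secreted modulators, 1 was called, Draxin (0.51 ± 0.12, peak 0.493 h, adjusted p = 0.00633), a secreted Wnt antagonist known from axon guidance. Neither of 2 genes for ligand secretion was.

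Receptors made up 8 of the 17 calls, out of 19 tested, beside 13.0% of all genes. They were Kremen1, a Dickkopf receptor (amplitude 0.20, peak 1.52 h, adjusted p = 0.00292), the Frizzled receptors Fzd10 (0.54, 13.7 h, 0.00760), Fzd1 (0.28, 10.7 h, 0.0215) and Fzd4 (0.26, 10.2 h, 0.0240), the co-receptor Lrp5 (0.20, 2.99 h, 0.0364), the Wnt5a receptor Ryk (0.10, 12.7 h, 0.0454), the R-spondin receptor Lgr4 (0.35, 14.6 h, 0.0464) and the ligase Znrf3 (0.29, 9.68 h, 0.0469). With the day of collection as a block, Lgr4 (0.0566), Ryk (0.0553) and Znrf3 (0.0553) were lost. Leaving out 1 library in turn, Fzd4 was called in 15, Lrp5 in 8, Lgr4 in 6, Znrf3 in 3 and Ryk in 2 of 18 fits, and the other receptors in 18.

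Inside the cell, 3 of 22 genes were called, beside 13.0% of all genes tested. They were Tle4 (amplitude 0.27, peak 23.8 h, adjusted p = 0.00302), Tle3 (0.36, 13.7 h, 0.00605) and Tle1 (0.34, 3.57 h, 0.0294), co-repressors that act with TCF/LEF factors. Tle2, of the same family, was not called (adjusted p = 0.792, edgeR). Of 9 genes known as Wnt targets, 3 were called: Ccnd1, a cyclin (0.67 ± 0.13, 15.1 h, 0.00414), Myc (0.47, 7.08 h, 0.0177) and Apcdd1, an inhibitor of Wnt signalling at the membrane (0.38, 4.0 h, 0.0337). Many other pathways also act on Ccnd1 and Myc. Leaving out 1 library in turn, Apcdd1 was called in 10 of 18 fits (adjusted p up to 0.0797) and Tle1 in 15 (up to 0.0791), and both were lost without ZT14 replicate 2 or replicate 3. Fitted peaks of the 17 genes ran from 23.8 h (Tle4) through 0.493 h (Draxin) to 15.5 h (Wnt1). None lay between 15.5 and 23.8 h. The gene with the most UMIs in each of the other roles, which is no comparison of transcript levels between genes, was Wnt11 (0.584 ± 0.135 per 10000) of the ligands, Igfbp4 (15.2 ± 2.79) of the modulators, Wls, the carrier that brings Wnt ligands to the cell surface (1.67 ± 0.137), Lrp6 (1.02 ± 0.102), Ctnnb1 (1.62 ± 0.103) and Twist1 (2.41 ± 0.108).

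**Figure D4:**
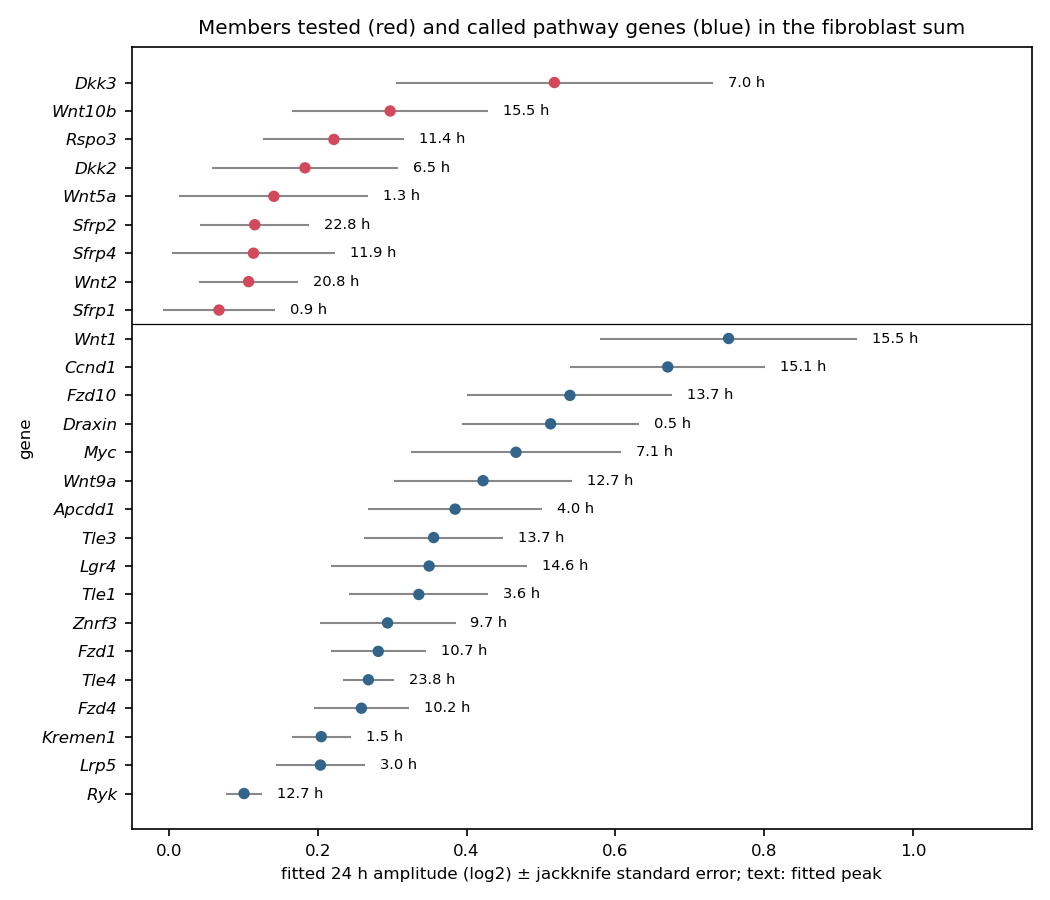
Fitted 24 h amplitude (log2, horizontal axis, with jackknife standard errors over libraries) in the fibroblast sum for the 9 members tested (red) and the 17 other Wnt pathway genes called (blue), with the fitted peak time beside each. The members lie between 0.07 (Sfrp1) and 0.52 (Dkk3) and none was called, while the called genes lie between 0.10 (Ryk) and 0.75 (Wnt1).

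The genes whose level over the 165 cluster-by-library sums was most like each member were found by Pearson correlation of log2 levels, over sums that share libraries. For Wnt2 they were Mfap5 (0.95), Anxa3 (0.94) and Emilin2 (0.92), and for Wnt10b Chst1 (0.94), Sema3e (0.93) and Emilin2 (0.93). Anxa3 and Sema3e were on the list of markers for Pi16 fibroblasts, and so was Cd55, which with Galnt16 (0.85) and Clip1 (0.84) was nearest to Rspo3 (0.85). For Wnt5a they were Smpd3 (0.88), Il18 (0.86) and Procr (0.85). For Sfrp1 they were Nfib (0.85), Cpxm2 (0.84) and Lsamp (0.83), for Sfrp2 Gm26771 (0.94), Csrp2 (0.87) and Clip4 (0.87), and for Sfrp4 Epdr1 (0.80), Chrdl1 (0.80) and Mat2b (0.78). Dkk3 was nearest to Ndufa4l2, C1qtnf3 and Tnmd (0.78 each), the last a tendon gene on the Cthrc1 list. Dkk2 had the weakest likeness to any gene among the 9 (Man2a1 0.67, Loxl3 0.65, Tshz2 0.64), and Wif1 had too few counts.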

How the data were processed

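The authors deposited raw UMI counts per gene and barcode for each of 18 libraries, which the submitters' processing notes credit to Cell Ranger 3.1.0 and mm10. Barcodes with 850 to 7800 genes and under 13% mitochondrial UMIs were kept. Cells were clustered with scanpy 1.11.5 (2000 variable genes without the Wnt list and clock genes, 30 principal components, 15 neighbours, resolution 0.8), first into cell types and then within fibroblasts. A cluster took a name where at least 3 of a list's markers were detected and its 20 leading genes held them, a rule on leading genes that was set after the clusters were seen. Doublet candidates stayed in, and leaving out the cells with the highest Scrublet scores (0.8% per 1000 barcodes) was an alternative.

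UMIs were summed per library over fibroblasts or over a cluster (libraries with at least 10 cells), since the mouse is the replicate. edgeR 4.0.16 (TMM, filterByExpr, quasi-likelihood test of the cosine and sine of a 24 h period, R 4.3.3) was fitted over all genes, with an adjusted p of 0.05 as threshold. DESeq2 1.42.0 and a JTK_Cycle test written in Python 3.11.15 (6 times with 3 replicates, p times 18 templates of 20, 24 or 28 h) were alternatives. The scripts were tested on simulated data. p-values measure the spread between mice, and floors and shares cover counting error only. The depth per library was 4850221 to 40827442 UMIs.

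The replicate number marks the day of collection in the sample titles. Over 45 pairs of libraries with the same number, deviations from the time means had correlations from -0.134 to 0.307 (median 0.024), and the number was fitted as a block in an alternative.

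The members and gene lists were chosen with earlier results of these data known. Every library's value was printed for members that passed in the fibroblast fit or differed by over 2 times between ZT means, and was added, after values were seen, for members called within clusters or between them. Pathway genes were named where they passed, with the highest of each other role by level, and 3 nearest genes per member by correlation of log2(level + 0.01). Cell types and clusters were rebuilt here, so their names can differ from the study's.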

Additional observations from a re-analysis of the deposited data

Results flagged for a closer look

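Dkk2 differed in its 24 h curve between the Krtdap and Sult1e1 clusters (interaction test, adjusted p = 0.00332, edgeR, 17 libraries), with fitted peaks at 11.5 and 4.19 h. Neither of these curves passed on its own (adjusted p = 0.549 and 0.0702, edgeR). Rspo3 differed between the same clusters (adjusted p = 0.0149), with fitted peaks at 7.06 and 12.6 h. The Rspo3 curve did not pass in the Krtdap cluster (adjusted p = 0.250, edgeR) and passed in the Sult1e1 cluster. The difference for Rspo3 was called in 14 of 17 fits that left out 1 library. Both genes stand out because the same mice gave the curves of both clusters, and the difference itself passed the test. With libraries of at least 20 cells of both clusters (15 libraries) the adjusted p was 0.0153 for Dkk2 and 0.0216 for Rspo3. The composition of each cluster over time was not tested as a source of the difference.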

How the results depend on the processing

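Where a rhythm was called, its fitted peak did not turn toward the opposite time of day under an alternative. Counts of calls, the test between clusters and zeitgeber time as a factor give no peak, so this could not be asked of them. The count of members called in the fibroblast sum was 0 under DESeq2, JTK_Cycle, zeitgeber time as a factor, no low-count filter, all deposited barcodes, clustering resolution 2, doublet candidates removed and the low-UMI cluster left out (chosen after seeing the data), and 0 to 1 with 1 library left out, the 1 being Wnt10b without ZT14 replicate 1. All genes called, 1671, became 726 with all deposited barcodes and 1064 with zeitgeber time as a factor, 2353 with DESeq2, 1781 with JTK_Cycle and 1383 with no low-count filter, and 1209 to 1814 with 1 library left out. Pathway genes called, 17, became 5 with all deposited barcodes, 8 with zeitgeber time as a factor and 13 with JTK_Cycle. With 1 library left out they were 10 to 17 (11 without ZT14 replicate 2, 10 without ZT14 replicate 3). The cause of these shifts was not tested.

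With the replicate block, 0 members, 1750 genes and 16 pathway genes were called in fibroblasts, and 4 calls were made within clusters. Beyond Lgr4, Ryk and Znrf3 it changed no call of a named gene.

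Calls within clusters, 4, were 3 at resolution 0.4 and 6 with at least 20 cells. They were 4 to 5 with 1 library left out, which was run in the 3 clusters with a call alone. At resolution 0.4 the calls were 1 each in the Sult1e1, Cxcl1 and interferon clusters, where 11.9, 3.88 and 1.54% of genes were called. The Sult1e1 cluster then held 5271 cells, and no Pla1a-led or Il18r1-led cluster was formed. The main clusters had no call in Cxcl1 or interferon, so the calls there repeat none of the 4. In the Sult1e1 cluster 1 of 9 members tested was called, against 2 of 8 in the main Sult1e1 cluster. At most 1 of those 2 was therefore kept. The difference between the Krtdap and Sult1e1 clusters was called for 1 to 2 members with 1 library left out (an alternative chosen after seeing the data). Among the named clusters, the one with the highest level was the same for 9 of 10 members at resolution 0.4. It was the same for 10 under the other alternatives, one of which left out the 20 cells with most Wif1 (chosen after seeing the data). Unnamed clusters, such as the Il18r1-led cluster where Sfrp2 was highest, were not followed. The lowest named cluster was the same for 8 members at resolutions 0.4 and 2 and with at least 20 cells, and for 9 with components centred by library, the exceptions being Sfrp1 and Dkk3. Single genes were followed under alternatives for the 9 members in the fibroblast sum, the 17 called pathway genes, and the calls within and between clusters. Of these values 706 kept their side of the threshold, 106 no longer passed and 1 newly passed. Only the 9 members could newly pass, since the rest were chosen as called. Results not called at first, such as Rspo3 in the Cxcl1 cluster, were not in this count. Wif1, with 52 UMIs in fibroblasts, did not pass the low-count filter of the main fit. The p-values of JTK_Cycle were not adjusted over genes, and its counts include calls with a period of 20 or 28 h. JTK_Cycle was not run with libraries left out.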
